A study of Mus musculus with 4 samples.

Results

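The 38 lysosomal genes described here encode acid hydrolases, their protein cofactors, proteins of the lysosomal membrane and the transcription factors TFEB and TFE3. They were taken by symbol from a list that leaves out the cathepsins and the proton pump, and all 38 were found among the 55536 annotated genes of the tables. The RNA came from bone-marrow-derived macrophages of C57BL/6J mice, which are primary cells grown out of marrow. All samples form 1 group: the cells were exposed to 100 ng/ml lipid A, the membrane anchor of bacterial endotoxin, for 12 h and then left in medium without it for another 12 h; collection followed a second exposure of 0 min. Other fields of the labels name the agent lipoprotein A instead. The 4 libraries are labelled biological replicates 1 to 4 with separate biosamples and 1 shared donor identifier, and sex and age were not collected. The p-values below measure the spread between these libraries, since the labels do not say whether they came from separate animals. No untreated or restimulated cells were analysed here, so the levels describe this state and carry no response to lipid A.

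Lysosomes break down what macrophages take up. Most soluble lysosomal enzymes carry a mannose 6-phosphate tag that sends them from the Golgi to the lysosome, where low pH makes them active, and the products leave through transporters in the membrane. TFEB and TFE3 move to the nucleus when the kinase mTORC1 is inactive and bind E-boxes of the sequence CACGTG in promoters of many lysosomal genes. Loss of single members of this set causes lysosomal storage diseases, among them Fabry, Tay-Sachs, Niemann-Pick and Pompe disease.

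Gene counts totalled 25594340, 27384162, 48875472 and 57126810 in replicates 1 to 4, so the most that a count of 0 allows (3 counts) was 0.117, 0.11, 0.0614 and 0.0525 CPM, counting error only. Replicates 1 and 2 stood apart from 3 and 4 in several records: the deposited notes list 6 read files against 4, and mitochondrial genes held 0.778% and 1.16% of counts against 3.34% and 3.00%. The estimated counts of the second quantification exceeded those of the first 1.32 and 1.33 times against 1.07 and 1.06 times. Its mean fragment length was 260 and 263 nt against 223 and 233 nt. That of the first did not show this gap, at 254, 260, 260 and 265 nt in replicates 1 to 4. A single RNA, CT010467.1, was listed at 84919.8, 10124, 3125 and 3490.4 TPM in replicates 1 to 4, out of the fixed total that all TPM of a library share, and its part in the TPM differences was not tested. Macrophage markers were all present: the 10 listed genes summed to between 15437 and 18144 TPM (transcript levels scaled for length and library total, used below), led by Lyz2 and Cd68. Fewer cells of a type and less RNA per cell cannot be told apart in such bulk libraries. Of 10 markers of osteoclasts, which share many lysosomal genes with macrophages, 4 were at 1 TPM or more on average. Their sum was between 33.1 and 54.0 TPM, with Calcr at 0 in every library. Most of it was Nfatc1 and Atp6v0d2, at 21.3 and 15.8 TPM on average, so the sum does not show that osteoclasts were present. The neutrophil markers summed to between 123 and 249 TPM, led by Csf3r at 85.4, 109, 169 and 158 TPM, with Ly6g and Retnlg at 0. S100a9 came next at 48.2, 8.36, 47.6 and 3.76 TPM, higher in replicates 1 and 3, which is not the split of the read files. B cell markers summed to between 25.9 and 108 TPM, nearly all of it Cd22.

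The E-boxes are shown first because TFEB and TFE3 are known to bind this sequence in many lysosomal genes. Binding in these cells was not measured. RefSeq promoter windows on GRCm38.p6, the patch release of mm10, run from 250 bases before a gene's start to 50 bases from the start on. They matched 34 of the 38 genes; Npc1, Galns, Asah1 and Plbd2 had no window. CACGTG, which reads the same on both strands, was found in 8 of the 34 genes (23.5%), against 8.09% of all 27025 genes with windows. The longer form GTCACGTG, searched on both strands and always containing CACGTG, was found in 7 of 34 (20.6%), against 2.55%. The palindrome TCACGTGA, which again contains CACGTG, was found in 2 (5.88% against 1.12%). A match describes letters in a window and is not evidence of binding. The sites below are 30 bases each, 5′ to 3′ on the gene's strand, with the E-box and any listed extension in capitals. The E-boxes of the second Mcoln1 site and of the Naglu site lie inside the GENCODE gene model, which starts upstream of RefSeq's.
Arsa, chr15:89477423-89477452, 16 bases before the RefSeq start: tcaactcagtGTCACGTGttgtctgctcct
Gaa, chr11:119267811-119267840, 140 bases before: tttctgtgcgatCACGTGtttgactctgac
Glb1, chr9:114401018-114401047, 48 bases before: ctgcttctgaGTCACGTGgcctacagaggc
Mcoln1, chr8:3500436-3500465, 71 bases before: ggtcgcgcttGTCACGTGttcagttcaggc
Mcoln1, chr8:3500462-3500491, 45 bases before: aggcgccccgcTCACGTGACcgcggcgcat
Naglu, chr11:101070009-101070038, 73 bases before: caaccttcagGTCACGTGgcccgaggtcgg
Sgsh, chr11:119355522-119355551, 29 bases before: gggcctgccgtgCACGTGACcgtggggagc

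Copies within 1 window were uncommon. At least 2 copies of CACGTG were found in 0.594% of all 32851 windows, and among the lysosomal genes in Gla, Mcoln1 and Lamp1. Lamp1 alone among them held 4 copies, which 8 of all 32851 windows reached (0.0244%). The Lamp1 copies begin 61, 45, 28 and 15 bases before the start. In the 250 bases upstream of Lamp1 (chr8:13158911-13159160, plus strand) the copies are in capitals, as they are in the stretch of the Gla window that lies before the GENCODE gene start (chrX:134601126-134601255, minus strand), where they begin 227 and 194 bases before the RefSeq start.
Lamp1 upstream: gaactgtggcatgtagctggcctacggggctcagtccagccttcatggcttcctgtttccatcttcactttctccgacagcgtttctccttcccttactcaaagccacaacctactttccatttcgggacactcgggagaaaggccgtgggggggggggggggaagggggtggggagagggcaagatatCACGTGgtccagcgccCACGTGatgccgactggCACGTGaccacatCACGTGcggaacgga
Gla upstream: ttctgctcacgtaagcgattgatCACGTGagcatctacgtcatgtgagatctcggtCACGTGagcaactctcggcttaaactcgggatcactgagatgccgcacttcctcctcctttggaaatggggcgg
Carrying an E-box did not go with a common level. Mean levels of the 8 genes ran from 12.1 TPM for Arsa and 19.5 TPM for Sgsh to 151 TPM for Gla and 2372 TPM for Lamp1, while Psap, the most abundant gene of the set, had no CACGTG in its window.

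Every one of the 38 genes was expressed in every library, and most were well above the typical expressed gene. Levels here and below are those of the first quantification unless stated. All 38 were at 1 TPM or more in each library and at 10 TPM or more on average, 17 reached 100 TPM and 3 reached 1000 TPM. The median of their mean levels was 94.7 TPM, beside 18.1 TPM for the 10476 genes at 1 TPM or more in each library. On the log2(TPM + 1) scale the list's median was 6.56 ± 0.23 (SD, n = 4), with 6.40, 6.33, 6.80 and 6.72 in replicates 1 to 4, beside 4.22 ± 0.10 for those 10476 genes. The set held 1.80%, 2.09%, 2.12% and 2.23% of all TPM. Psap alone gave 41.0%, 46.2%, 42.2% and 40.1% of that, and the 5 most abundant members together gave 74.3% to 76.3%.

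**Figure D1:**
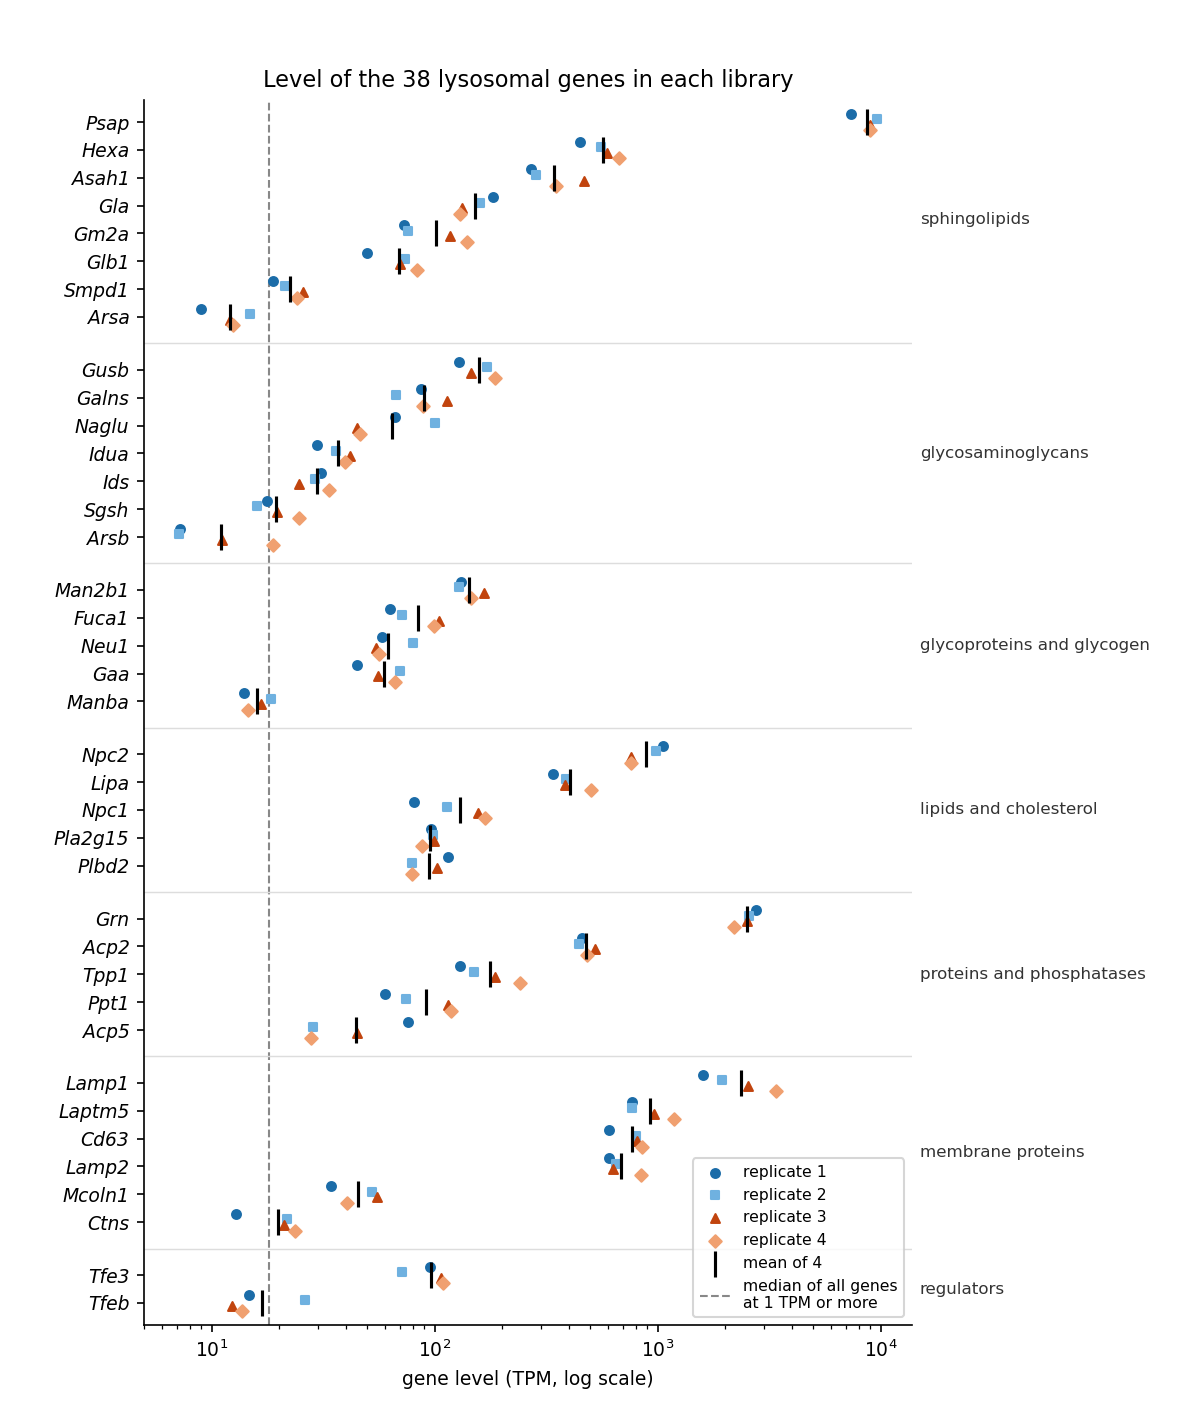
Level of each of the 38 genes (TPM, log axis) in replicates 1 to 4, grouped by role and ordered by mean within a role; black ticks are means and the dashed line is the 18.1 TPM median of all genes at 1 TPM or more. Psap, Grn and Lamp1 lie to the right above 1000 TPM, and Arsa, Arsb, Manba and Tfeb have means left of the dashed line.

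Sphingolipid breakdown was led by its cofactor rather than by an enzyme. Psap encodes prosaposin, which is cut into the saposins that present lipids to the hydrolases. It measured 7388, 9645, 8933 and 8942 TPM in replicates 1 to 4, a mean of 8727 ± 953 TPM (SD, n = 4) and rank 13 among all genes. Replicate 1 was the lowest and the other libraries lay close together, but the second quantification gave 5294, 6991, 9058 and 9104 TPM. In counts scaled between libraries, the log2 difference of replicates 3 and 4 over 1 and 2 was 0.09 in the first and 0.12 in the second. Hexa, the alpha subunit of beta-hexosaminidase, measured 449, 557, 592 and 675 TPM. Replicate 1 was again the lowest and replicates 3 and 4 were the highest. Gm2a, the activator that lifts GM2 ganglioside to the enzyme, measured 72.6, 75.9, 117 and 139 TPM, with replicates 3 and 4 above 1 and 2. Acid ceramidase Asah1 measured 271, 286, 469 and 349 TPM, while acid sphingomyelinase Smpd1, which makes its substrate, measured 19.0, 21.3, 25.7 and 24.1 TPM. In both, replicates 3 and 4 were above 1 and 2. The galactosidases differed in level: Gla, which removes alpha-galactose, averaged 151 ± 24.8 TPM and Glb1, which removes beta-galactose, 69.4 ± 14.1 TPM. Arsa, the sulfatase for sulfatide, had the lowest level of the group at 9.01, 14.9, 12.1 and 12.4 TPM.

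The enzymes that dismantle glycosaminoglycans were the least abundant hydrolases, with a median of 36.9 TPM over 7 genes. Gusb, beta-glucuronidase, was the highest at 129, 171, 145 and 186 TPM. Galns, a sulfatase for keratan and chondroitin sulfate, measured 87.1, 67.2, 114 and 89.2 TPM. Naglu, which removes N-acetylglucosamine from heparan sulfate, measured 66.6, 100.5, 44.7 and 46.4 TPM, and here replicates 3 and 4 were the lower. Idua, Ids and Sgsh, which also act on heparan sulfate, were lower than Naglu: Idua averaged 36.9 ± 5.32 TPM, Ids 29.6 ± 3.76 TPM and Sgsh 19.5 ± 3.73 TPM. Arsb, which removes sulfate from dermatan and chondroitin sulfate, had the lowest mean of all 38 genes at 11.1 ± 5.46 TPM, from 7.24, 7.14, 11.1 and 18.8 TPM. Its coefficient of variation of 49.3% was near that of Acp5 (51.2%), the highest of the set, where the median was 19.0% beside 22.9% for the 10476 expressed genes.

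Glycoprotein and glycogen breakdown took middle levels, with a median of 62.1 TPM over 5 genes. The alpha-mannosidase Man2b1 measured 131, 129, 167 and 145 TPM and the beta-mannosidase Manba 14.0, 18.5, 16.7 and 14.6 TPM, so the alpha enzyme was higher in each library. Neu1, the sialidase, measured 57.9, 79.8, 54.6 and 56.2 TPM, with replicate 2 apart from the others. Its protective protein Ctsa measured 850.3, 1023, 908 and 878 TPM. Gaa, the acid alpha-glucosidase that degrades glycogen, measured 45.1, 69.9, 55.8 and 66.3 TPM without separating the library pairs. Fuca1, the alpha-fucosidase, measured 62.9, 71.6, 105 and 99.5 TPM, and its transcripts are described below.

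Lipid and cholesterol handling was dominated by Npc2 and Lipa. Lipa, the acid lipase that frees cholesterol from cholesteryl esters, measured 339, 387, 386 and 505 TPM. The soluble cholesterol carrier Npc2 measured 1057, 987, 756 and 756 TPM, while Npc1, the membrane protein that takes cholesterol from it, measured 80.5, 114, 157 and 168 TPM. Replicates 3 and 4 lay below 1 and 2 for Npc2 and above them for Npc1. The second quantification gave Npc2 at 755, 714, 763 and 767 TPM, with replicates 3 and 4 not below 1 and 2. In counts scaled between libraries, as described below, the quantifications were close for Npc2. The log2 difference of replicates 3 and 4 over 1 and 2 was -0.43 in the first and -0.41 in the second (edgeR adjusted p = 0.29 and 0.38). The second quantification gave Npc1 at 48.3, 72.1, 136 and 135 TPM. Pla2g15, a phospholipase, had the smallest spread of the set at 96.8, 98.1, 99.6 and 87.5 TPM, a coefficient of variation of 5.72%. Plbd2, a phospholipase B-like protein, averaged 94.0 ± 17.8 TPM.

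Among the remaining enzymes and cofactors, Grn was the second most abundant gene of the set. It encodes progranulin, which is split into granulins in the lysosome, and it measured 2771, 2568, 2528 and 2197 TPM. Acp2, the lysosomal acid phosphatase, measured 457, 443, 523 and 481 TPM. Acp5, the tartrate-resistant phosphatase known as a marker of osteoclasts, measured 76.4, 28.5, 45.0 and 27.9 TPM, with replicate 1 the highest and replicates 2 and 4 alike. Over the same libraries the osteoclast markers summed to 33.2, 33.1, 54.0 and 48.1 TPM, and their part in the Acp5 level was not tested. Tpp1, a tripeptidyl peptidase, measured 130, 150.5, 186 and 241 TPM. Ppt1, which removes palmitate from proteins, measured 60.0, 74.5, 114 and 118 TPM. Both were higher in replicates 3 and 4.

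The membrane proteins were the most abundant role group, with a median of 724.7 TPM over 6 genes. Lamp1, a heavily glycosylated protein of the limiting membrane, measured 1600.4, 1941, 2536 and 3411 TPM, so that the highest library had 2.13 times the lowest. Its paralogue Lamp2 measured 604, 652, 632 and 847 TPM. Cd63, a tetraspanin of late endosomes, measured 603, 803, 806 and 851 TPM, and Laptm5, a lysosomal protein of blood cells, 765, 772, 965 and 1179 TPM. Those 4 genes were more than 10 times above the other members of the group. Mcoln1, the calcium channel of the lysosome, measured 34.3, 52.2, 55.2 and 40.3 TPM, and Ctns, the cystine exporter, 12.8, 21.9, 21.2 and 23.7 TPM.

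Of the regulators, Tfe3 was the more abundant in each library. It measured 95.7, 71.8, 107 and 110 TPM, against 14.7, 26.4, 12.4 and 13.7 TPM for Tfeb. The gap was narrowest in replicate 2, which had the lowest Tfe3 and the highest Tfeb. Their relative Mitf, which belongs to the list of factors that control or accompany TFEB, averaged 34.9 ± 3.49 TPM and so lay between them. Mitf was named after its values were seen.

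Ratios between functional partners put these levels on 1 scale, as the log2 of (TPM + 1) of the first gene over (TPM + 1) of the second in each library. Ctsa exceeded Neu1 by 3.87 ± 0.16 (SD, n = 4) and Asah1 exceeded Smpd1 by 3.85 ± 0.20, the most even of these pairs across libraries. Npc2 exceeded Npc1 by 2.81 ± 0.73, from 3.70 and 3.10 in replicates 1 and 2 to 2.26 and 2.17 in replicates 3 and 4. This ratio takes all Npc1 transcripts together, and they are described below. Tfe3 exceeded Tfeb by 2.49 ± 0.74, Psap exceeded Grn by 1.79 ± 0.27 and Lamp1 exceeded Lamp2 by 1.75 ± 0.31. The ratio was negative for Glb1 over Gla (-1.12 ± 0.52), Gm2a over Hexa (-2.52 ± 0.27) and Acp5 over Acp2 (-3.51 ± 0.67). Each of these 9 ratios had 1 sign in 4 of 4 libraries. An exact two-sided sign-flip permutation test over 16 sign assignments then gives p = 0.13 for each pair, also after Benjamini-Hochberg adjustment over 10 pairs, which is the smallest p that 4 libraries allow.

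**Figure D2:**
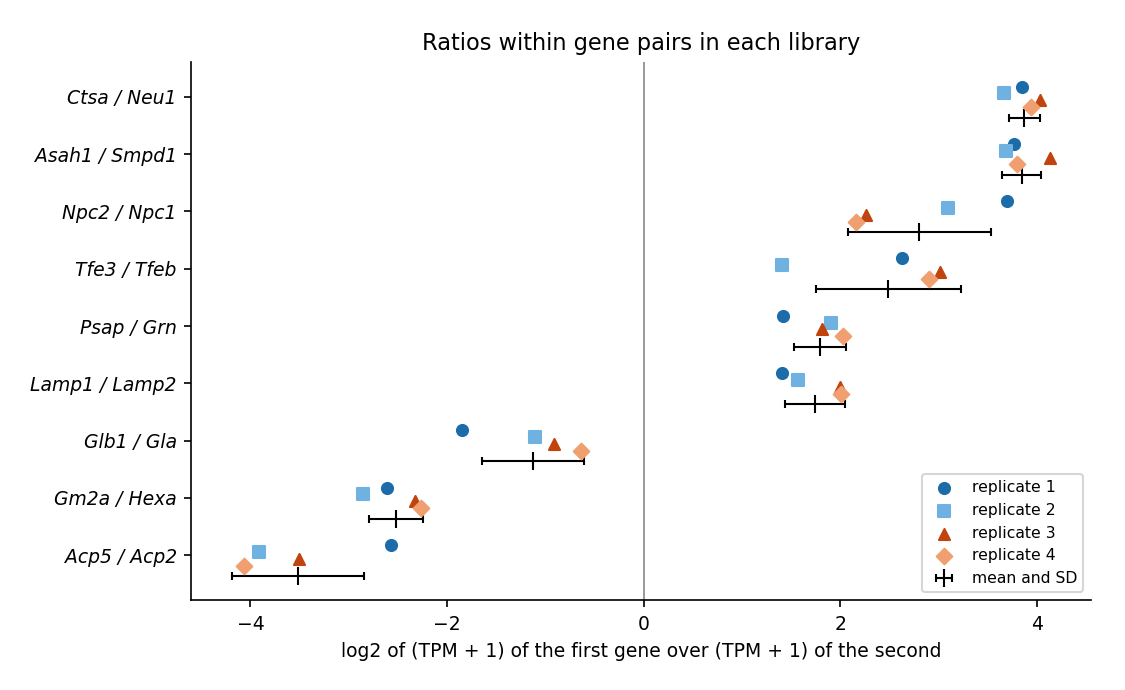
Log2 ratio within each of 9 gene pairs in replicates 1 to 4 (coloured points), with mean and SD as black bars. No pair crosses 0, and Npc2 over Npc1 and Tfe3 over Tfeb spread most, with SD of 0.73 and 0.74.

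The record of read files splits the libraries into replicates 3 and 4 against 1 and 2, and the members were read against that split. It compares libraries and not conditions. With edgeR's quasi-likelihood test on all 11991 genes that passed the filter on low counts, 1 of the 38 genes had a Benjamini-Hochberg adjusted p under 0.05, while 5.8% of all genes tested did (2.08% higher in replicates 3 and 4, 3.72% lower). That gene was Ppt1, higher by 0.83 on the log2 scale (SE 0.15, edgeR adjusted p = 0.042). The call was lost when any single library was left out, which leaves 1 library on one side. The loss without replicate 3 or 4 does not single out Ppt1, since every gene called lost its call there. Without replicate 1 or 2 some other genes kept their calls, while Ppt1 did not. Exons of Ppt1 overlap those of Cap1 on the opposite strand over 129 bases, 3.51% of its exon length, and Cap1 was at 467 TPM. Whether the counting used strand is not given in the sources used here. Naglu came next, with a log2 difference of -0.86 (SE 0.17, edgeR adjusted p = 0.0501).

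At an unadjusted p under 0.05, edgeR gave 8 of the 38 genes (21.1%), beside 28.5% of all genes tested. Besides Ppt1 and Naglu these were the GM2 activator Gm2a (0.80, SE 0.19), the sulfatase Arsb (1.06, SE 0.27), the peptidase Tpp1 (0.63, SE 0.18), Lamp1 (0.76, SE 0.26), Npc1 (0.51, SE 0.18) and Asah1 (0.60, SE 0.23), with values as log2 differences. Their edgeR adjusted p-values ran from 0.063 for Gm2a to 0.163 for Asah1. Over 32.3% of the Arsb exon length, a noncoding gene on the opposite strand overlaps. That gene averaged 4.25 TPM, beside 11.1 TPM for Arsb, and its part in the Arsb difference was not tested. The median difference over the 38 genes was 0.14, with 26 positive and 12 negative values, while over all genes tested the median was -0.01 and 49.1% were positive. By TPM of the first quantification, replicates 3 and 4 both lay above replicates 1 and 2 for 18 of the 38 genes, beside 29.6% of all genes tested. Both lay below for 6, beside 26.9%, and the library pairs overlapped for the other 14. TPM of the second quantification were not counted in this way, and for Npc2 they did not put replicates 3 and 4 below. In the same split the mitochondrial share of counts was also higher in replicates 3 and 4, and its part in these differences was not tested.

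**Figure D3:**
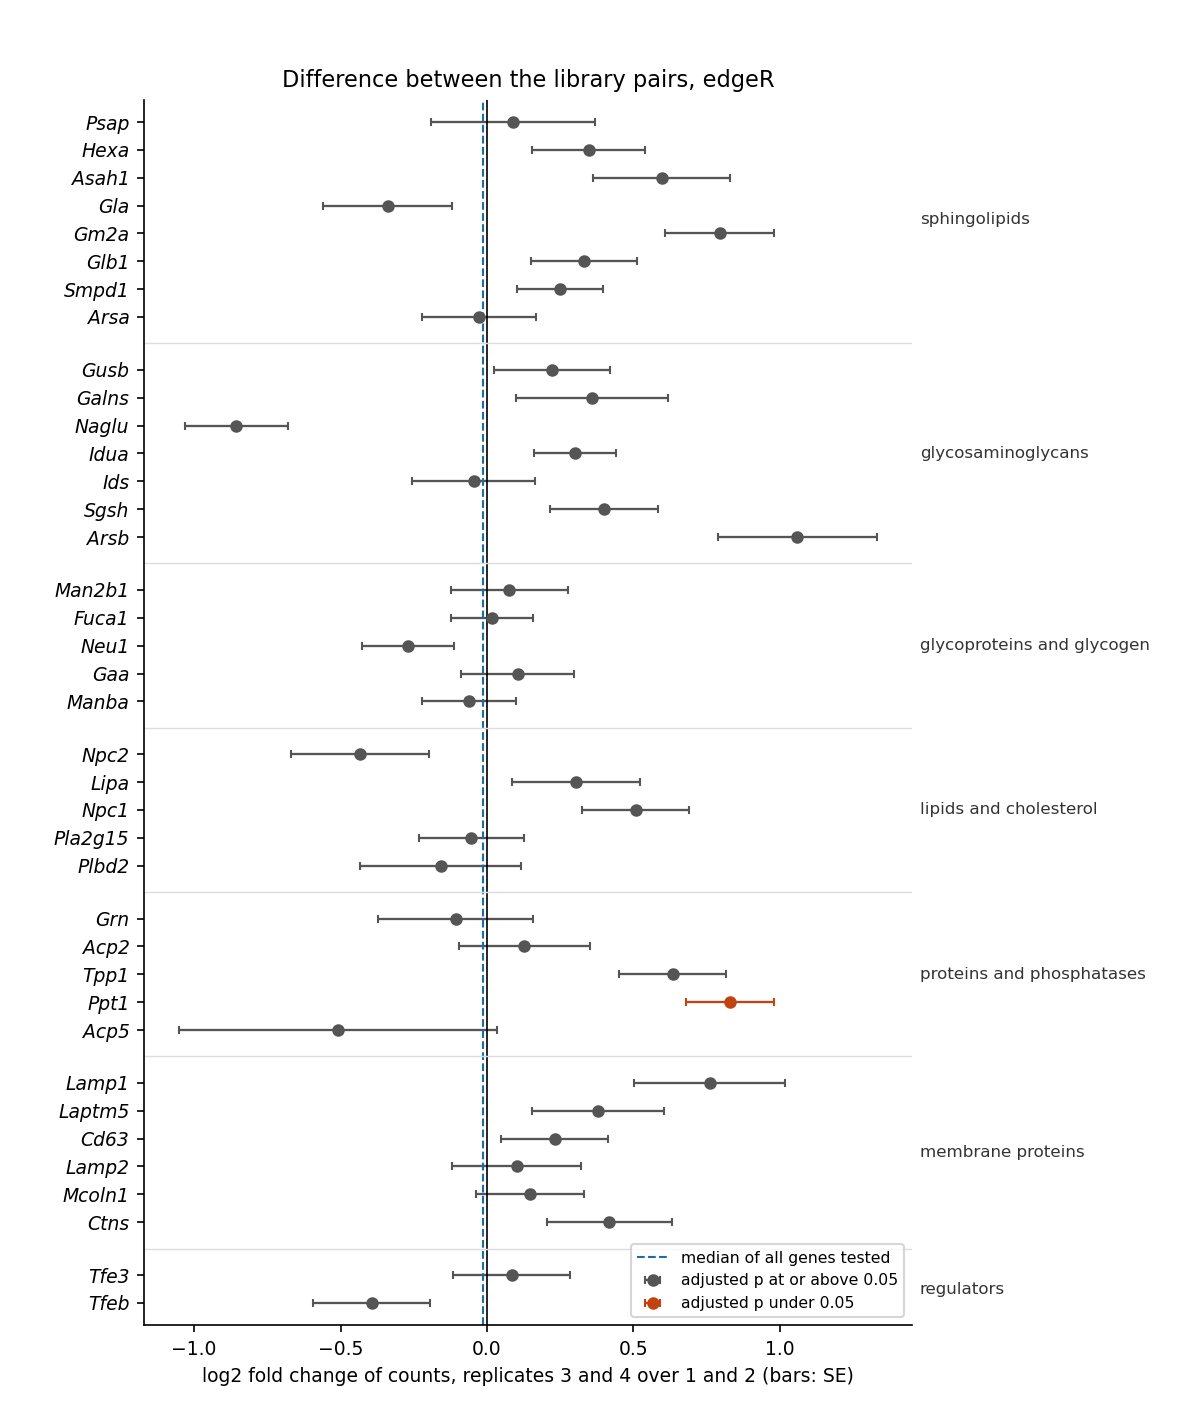
Log2 difference in counts between replicates 3 and 4 and replicates 1 and 2 for each of the 38 genes (points, edgeR; bars are SE), with the median of all genes tested as a dashed line. Ppt1 (0.83), the 1 gene past the threshold, is in red, and Arsb (1.06) and Naglu (-0.86) lie farthest to either side.

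Differences in TPM and in counts did not match for every gene. Fuca1 had TPM of 62.9 and 71.6 in replicates 1 and 2 and of 105 and 99.5 in replicates 3 and 4, yet its count difference was 0.02 (SE 0.14) on the log2 scale. Its TPM were split between the coding transcript Fuca1-201 (2525 nt) and Fuca1-205, a 401 nt transcript annotated without a reading frame. Fuca1-205 held 31.7%, 28.6%, 57.9% and 49.96% of the gene's TPM in replicates 1 to 4. The second quantification gave it 51.1%, 48.9%, 57.8% and 55.2% in the same libraries, a smaller gap between the library pairs. Fuca1-201 measured 40.6, 46.8, 38.6 and 43.9 TPM in the same libraries.

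At transcript level most of the set was simple in the first quantification, from which the shares and counts of genes below come unless stated. The second differed widely for some genes. Coding transcripts averaged 51.4% there for Asah1, against 91.0% in the first, and 75.2% for Npc1, against 52.6%. The most abundant transcript held over 90% of the gene's TPM for 20 of the 38 genes and over 50% for 35, with a median of 90.3%. Transcripts annotated as protein coding held a median of 97.8%. Coding transcripts held under 90% for 10 genes, and for 1 of these, Arsa, the most abundant transcript was not coding: the retained-intron transcript Arsa-201 held 61.4%, 62.7%, 60.1% and 57.1%, so that coding Arsa transcripts averaged 4.80 ± 0.93 TPM. A retained intron can keep a transcript in the nucleus or shift its reading frame. Npc1 was also divided, with Npc1-206, a 2219 nt retained-intron transcript from the 3′ part of the gene, at 34.0%, 39.7%, 59.9% and 53.8%. The second quantification gave it 4.71%, 18.1%, 42.7% and 27.9%. Coding Npc1 RNA was therefore lower than the gene's total, at 64.8 ± 9.39 TPM of 130 ± 40.2 TPM. The coding transcript Npc1-201 measured 53.0, 68.7, 62.6 and 75.0 TPM in replicates 1 to 4, so here the library pairs overlapped. In the second quantification it measured 45.4, 57.9, 76.4 and 94.8 TPM, with replicates 3 and 4 above 1 and 2. Tfe3 was spread over many coding transcripts, led by the 408 nt fragment Tfe3-214 with 24.3%, 12.6%, 34.9% and 33.6%.

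In 3 genes a transcript's share moved by over 20 percentage points between the library pairs in both quantifications: Acp5, Idua and Npc1. Acp5 differed by its 5′ end. Acp5-202, which starts at position 22130598 of chromosome 9 inside the second exon of Acp5-206, held 56.4% and 57.7% in replicates 1 and 2 and was listed at 0 in replicates 3 and 4. Acp5-206, which starts upstream at position 22131831 with a first exon of 95 nt that Acp5-202 lacks, held 22.3%, 16.8%, 76.3% and 68.7%. In the second quantification Acp5-202 held 36.4%, 40.5%, 0 and 0. Idua, the alpha-L-iduronidase, differed by an exon: Idua-203 lacks exon 2 of Idua-202, 141 nt at chr5:108670119-108670259, and starts at another position. Idua-203 held 11.4%, 21.8%, 65.0% and 55.2% of Idua TPM while the gene as a whole stayed between 29.8 and 41.9 TPM. These shares are estimates from reads that the transcripts of a gene largely share, and they follow the same split as the read files, so library and cells cannot be told apart.

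**Figure D4:**
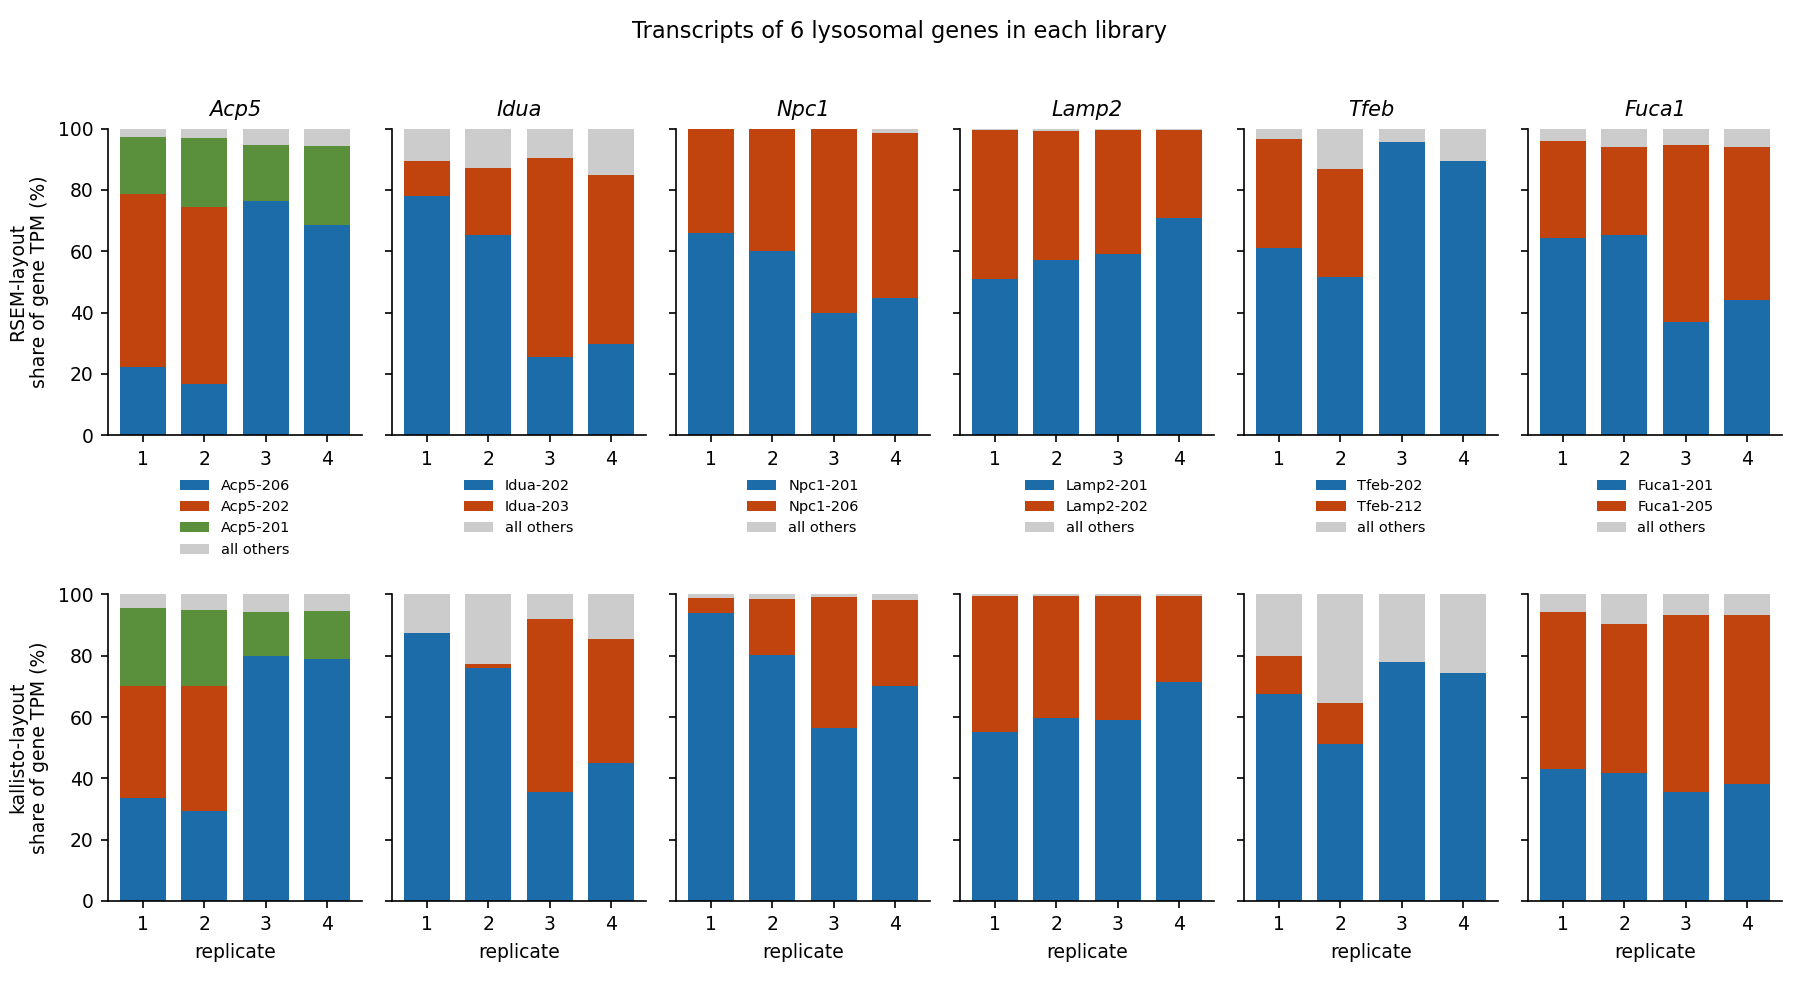
Share of the gene's TPM held by named transcripts of 6 genes in replicates 1 to 4, from the first quantification (top) and the second (bottom); grey is every other transcript. Acp5-202 is present in replicates 1 and 2 and at 0 in replicates 3 and 4 in both rows, and Idua-203 is larger in replicates 3 and 4 in both.

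The stretch before the Acp5-202 start is shown because that transcript was estimated above 0 in some libraries and listed at 0 in others. It holds GTCATGTGA, read on the opposite strand as TCACATGAC, a form of the M-box that MITF, TFEB and TFE3 are known to bind. This motif was picked from the Acp5 sequence, so Acp5 had to hold it. It does not overlap CACGTG, and in Acp5 it begins 91 bases before the start. Windows of Gla, Ppt1 and Tpp1 also held it, as did 0.403% of all genes. The shorter TCATGTGA, which GTCATGTGA contains, was found in windows of these 4 genes and of Grn, and of 1.15% of all genes. The other Acp5 windows did not hold GTCATGTGA. The 250 bases are chr9:22130599-22130848, minus strand, with the motif in capitals.
Acp5-202 upstream: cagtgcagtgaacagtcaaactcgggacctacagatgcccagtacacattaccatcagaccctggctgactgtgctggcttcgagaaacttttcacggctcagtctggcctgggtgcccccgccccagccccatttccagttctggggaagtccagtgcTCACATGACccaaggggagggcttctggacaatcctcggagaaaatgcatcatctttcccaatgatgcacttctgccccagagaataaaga

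Lamp2 and Tfeb also had divided transcripts. Lamp2 transcripts share their first exons and differ in the last, which encodes the membrane span and tail. Lamp2-201 held 51.0%, 57.1%, 59.2% and 70.8% and Lamp2-202 48.6%, 42.3%, 40.3% and 28.8% in replicates 1 to 4. The second quantification gave Lamp2-201 55.3%, 59.5%, 59.1% and 71.4%. Replicate 4, which had the most Lamp2, also had the largest share of Lamp2-201. For Tfeb, the main transcript Tfeb-202 held 61.0%, 51.7%, 95.6% and 89.4%. Tfeb-212, which starts downstream and lacks exon 3 of Tfeb-202 (255 nt), held 35.7% and 35.1% in replicates 1 and 2 and was listed at 0 in replicates 3 and 4. Its shares in the second quantification were 12.4%, 13.2%, 0 and 0. Tfeb-202 itself measured 8.95, 13.6, 11.8 and 12.3 TPM.

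The rest of the lysosomal machinery was at similar or lower levels. The 29 other hydrolases and cofactors had a median of 94.2 TPM, with Ctsa (915 ± 76.1 TPM) and the nuclease Pld3 (504 ± 106 TPM). None of them passed the edgeR test between library pairs (5.8% of all genes did). At an unadjusted p under 0.05 edgeR gave 9 of the 29, beside 28.5% of all genes, and DESeq2 called 2, beside 16.2%. The 27 other membrane proteins and transporters had a median of 42.4 TPM, led by Cd68 (3328 ± 1091 TPM), the peptide transporter Slc15a3 (716 ± 95.7 TPM) and Laptm4a (429 ± 30.5 TPM). Of these 27 genes edgeR called 3, beside 5.8% of all genes, and DESeq2 called 8, beside 16.2%. By edgeR 1 gene was called higher in replicates 3 and 4, the channel Tpcn1 (0.99, SE 0.17, edgeR adjusted p = 0.041), and 2 lower, Spns1 (-1.26, SE 0.19, edgeR adjusted p = 0.035) and Slc15a4 (-0.75, SE 0.14, edgeR adjusted p = 0.044). The TPM of Slc15a4 went the other way, at 38.2, 42.2, 208 and 352. Spns1 exports lysophospholipids and Slc15a4 carries histidine and peptides.

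Sorting to the lysosome was led by M6pr, the small mannose 6-phosphate receptor, which measured 349 ± 31.6 TPM and was followed by the retromer genes Vps29 (192 ± 32.8 TPM) and Vps26a (167 ± 46.3 TPM). The median of the 14 sorting genes was 53.7 TPM. DESeq2 called 3 of them, beside 16.2% of all genes. With edgeR 2 genes, beside 2.08% of all genes, were called higher in replicates 3 and 4: the receptor Sort1 (1.39, SE 0.26, edgeR adjusted p = 0.045), which was low at 0.77, 1.38, 2.76 and 2.79 TPM, and the adaptor subunit Ap1m1 (0.82, SE 0.15, edgeR adjusted p = 0.044). Of the 25 genes that control TFEB and TFE3, 24 were tested. DESeq2 called 2 of them, beside 16.2% of all genes, and edgeR called 1, beside 5.8%. The edgeR call was Lamtor4 of the Ragulator complex, with a difference of -1.21 (SE 0.20, edgeR adjusted p = 0.037). This list had a median of 34.8 TPM and was led by Lamtor1 (241 ± 25.2 TPM), Lamtor5 (156 ± 34.9 TPM) and the GTPase Rragc (149 ± 10.8 TPM). Leaving out replicate 3 or 4 ended each of the 6 calls in these lists. It left 1 library on that side and ended every call among all genes, so it does not single out the 6. Without replicate 1 edgeR kept Spns1 of the 6, and without replicate 2 it kept Spns1, Sort1 and Lamtor4. The counts of the second quantification ended the calls of Sort1 and Ap1m1, and the offsets for GC content and length those of Sort1 and Lamtor4.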

How the data were processed

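PolyA-selected RNA of 4 libraries was read from the deposited tables. Per the file headers, gene and transcript tables in the column layout of RSEM hold expected counts, TPM, lower and upper interval bounds of TPM (their level is not stated) and the percent of a gene's TPM in each transcript (the deposited percent was recomputed here from TPM), and a second transcript table in the layout of kallisto holds estimated counts and TPM. Per the deposited notes the tables use mm10 and GENCODE M21. Which aligner and programs made them, and in which version, is not given in the sources used here. Deposited expected counts carry no normalization, and deposited TPM are scaled within a library, so a few abundant RNAs shift all others.

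Rows outside GENCODE (26345, of which 97 spike-ins) were left out, at most 0.128% of counts. Expected counts were rounded and tested by edgeR's quasi-likelihood test (version 4.0.16, R 4.3.3) after TMM scaling and removal of genes under filterByExpr's minimum count, set to 10, at a Benjamini-Hochberg threshold of 0.05, with DESeq2 1.42.0 as an alternative. On simulated counts for this comparison over 11991 genes, edgeR recovered 52% of 100 genes changed by 1 on the log2 scale and 99% of 100 changed by 2. The changed genes were drawn from those with a mean count over 100. Spread between libraries followed a trend with level and not each gene's own value. The recovery therefore does not cover genes with lower counts or unusual spread. The deposited interval of TPM had a half-width of at most 22.0% of the value for any member, with a median of 4.14%. The members and lists were chosen with earlier results of these data known. Named genes were all 38 members, the genes of the 10 pairs, from each other lysosomal list the 3 of highest mean TPM and any called, and the top 2 of marker lists; a pair and a gene that this rule names are not reported here. Markers of mast cells (at most 14.0 TPM summed), dendritic cells (at most 18.3), T and NK cells (2.05), fibroblasts (1.05), endothelium (45.9) and erythroid cells (1.17) were also read. Tmem55b was not matched in its list and is not analysed here. Alternatives were leaving out each library, other normalization, no filter, the second quantification, offsets for GC content and length, a pseudocount of 0.1 in place of 1, and TPM rescaled to nuclear protein-coding genes.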

Additional observations from a re-analysis of the deposited data

Results flagged for a closer look

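In 88 checks of a value over the 4 libraries, 4 had 1 library far from the other 3, by Dixon's critical value for the gap over the range, where chance alone gives about 1 in 20. Neu1 was at 79.8 TPM in replicate 2 and between 54.6 and 57.9 TPM in the others. Tfeb was at 26.4 TPM in replicate 2 and between 12.4 and 14.7 TPM in the others. The main transcript of Naglu held 98.3% in replicate 3 and between 99.8% and 100% in the others. For Arsb the main transcript held 99.8% in replicate 4 and 100% in the others.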

How the results depend on the processing

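The count of members called between the library pairs depended on the tool and the libraries. It was 2 with relative log expression size factors and 2 with the second quantification (Naglu and Ppt1 in both). It was 4 without a filter on low counts and 6 with DESeq2 (15.8%, beside 16.2% of all genes). With GC and length offsets it was 0, where 8 had an unadjusted edgeR p under 0.05. Except for DESeq2, no share of all genes in the same setting stands beside these counts. They therefore describe the settings and give no result about the members. Leaving out a library in turn left no member called with edgeR. Each such fit has 1 library on one side, so no single member is judged by it. The Ppt1 call was kept in none of them and so depended on having all 4 libraries. Over all genes the 696 calls became 2569 without a filter, 1866 with DESeq2 and 0 to 671 when a library was left out (177 without replicate 1 and 0 without replicate 3 or 4, where 1955 and 1966 had an unadjusted p under 0.05). With the offsets the Ppt1 difference was 0.75, against 0.83, with an edgeR adjusted p of 0.051.

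Log2 differences that changed sign had edgeR adjusted p-values above 0.05. Without a filter Arsa was 0.027 and Ids 0.004. With the offsets Arsa was 0.12, Plbd2 0.065 and Tfeb 0.18. When a library was left out Acp2 ran from -0.0022 to 0.29, Acp5 ran from -1.12 to 0.58, Arsa ran from -0.21 to 0.21, Fuca1 ran from -0.0395 to 0.0856, Gaa ran from -0.0506 to 0.30, Grn ran from -0.29 to 0.12, Ids ran from -0.26 to 0.15, Lamp2 ran from -0.028 to 0.23, Man2b1 ran from -0.0649 to 0.25, Manba ran from -0.19 to 0.0702, Mcoln1 ran from -0.0108 to 0.30, Pla2g15 ran from -0.16 to 0.0831, Plbd2 ran from -0.48 to 0.26 and Tfe3 ran from -0.13 to 0.35.

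The members' share of all TPM averaged 1.82% by the second quantification and 2.38% after rescaling. In replicates 1 to 4 it was 1.33%, 1.55%, 2.14% and 2.25% by the second quantification. After rescaling it was 2.09%, 2.27%, 2.51% and 2.67%. By the second quantification the median main transcript share was 87.3% and Asah1 over Smpd1 was 4.16. The cause was not tested. The other pairs kept their values within 1 SD. No paired analysis was possible because the series has 1 group. With 4 libraries no permutation test can pass 0.05, and TPM share 1 total per library.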
